A study of Mus musculus with 8 samples.

Results

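The 9 genes described here encode proteins of the lysosomal membrane and of cholesterol export from the lysosome: Lamp1, Lamp2, Cd68, Scarb2, Laptm5, Npc1, Npc2, Mcoln1 and Ctns. They were chosen by name, with earlier results of these data known. Their regions are the rows of the deposited table whose nearest gene, as the table assigns it, is among the 9. This gave 117 of 129304 regions and 9 of 18707 gene symbols. Laptm5 had 35 regions, Scarb2 21, Lamp2 and Npc1 14 each, Npc2 13, Lamp1 8, Cd68 7, Mcoln1 3 and Ctns 2.

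Brain nuclei were profiled by ChIP-seq (chromatin immunoprecipitation with sequencing) for H3K27ac, the acetylated form of lysine 27 of histone H3 found at active promoters and enhancers. The nuclei came from C57BL/6 mice aged 2 years. One group was wild type (WT), and the other, labelled GrnKO, lacked Grn, the gene of progranulin. The labels give no other allele or treatment for either group, no sex, and no account of how the Grn allele was made. The sort kept nuclei with PU.1, a myeloid factor, and without NEUN or OLIG2, a gate that takes microglia and could also hold other PU.1-positive myeloid cells. There were 2 replicates per genotype, each a pool made from 2 mice, so animals within a pool cannot be told apart. The assay reads chromatin and not transcript or protein.

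Lysosomes break down material taken up by endocytosis and phagocytosis, and in microglia they handle debris and lipid-rich myelin. Their membrane is lined by heavily glycosylated proteins, foremost LAMP1 and LAMP2, and holds the channels and transporters that move ions, amino acids and lipids out of the lumen. Cholesterol freed in the lumen is bound by NPC2, a soluble protein, and handed to NPC1 in the membrane. Many lysosomal genes carry the sequence CACGTG near their start site, the core of the element recognised by TFEB and related factors. Progranulin reaches the lysosome, where it is cut into granulins.

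The sequences before the start sites of Lamp1, Mcoln1 and Cd68 are shown because these genes are among the members whose H3K27ac rose, and because their windows hold repeated motifs. RefSeq sequences of build GRCm38.p6 were used, on the strand of the gene and 5′ to 3′, and each run ends at the base before the start site. Capitals mark CACGTG in Lamp1 and Mcoln1, and TGAGTCA, the form bound by AP-1 factors, in Cd68. The Lamp1 run is chr8:13158911-13159160 on the plus strand, the Mcoln1 run is chr8:3500269-3500518 on the plus strand, and the Cd68 run is chr11:69666171-69666420 on the minus strand.
Lamp1: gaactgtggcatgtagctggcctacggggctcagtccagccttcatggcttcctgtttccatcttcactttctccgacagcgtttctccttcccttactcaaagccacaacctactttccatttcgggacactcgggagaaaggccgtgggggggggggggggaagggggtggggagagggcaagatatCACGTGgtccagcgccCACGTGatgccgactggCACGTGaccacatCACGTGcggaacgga
Mcoln1: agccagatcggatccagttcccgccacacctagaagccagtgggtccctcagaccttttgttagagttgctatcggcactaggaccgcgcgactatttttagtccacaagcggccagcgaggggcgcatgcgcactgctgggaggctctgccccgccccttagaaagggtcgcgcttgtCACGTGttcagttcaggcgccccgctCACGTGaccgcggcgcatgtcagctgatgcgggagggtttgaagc
Cd68: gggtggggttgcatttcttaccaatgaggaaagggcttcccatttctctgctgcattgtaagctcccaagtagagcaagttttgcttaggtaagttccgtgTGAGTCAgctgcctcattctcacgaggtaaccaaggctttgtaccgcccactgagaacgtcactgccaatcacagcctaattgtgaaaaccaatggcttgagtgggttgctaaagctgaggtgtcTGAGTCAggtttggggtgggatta

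A search of the RefSeq windows, which run from 250 bases before to 50 bases after a start site, covered 8 of the 9 members. CACGTG, which reads the same on both strands, occurred 4 times in the Lamp1 window, beginning at -61, -45, -28 and -15, and 2 times in the Mcoln1 window, beginning at -71 and -45. It was not found in the windows of Lamp2, Cd68, Scarb2, Npc2, Ctns and Laptm5. Of all 32851 windows of the same length, 7.15% held CACGTG at least once, 0.594% at least 2 times and 0.0244%, which is 8 windows, at least 4 times. TGAGTCA or its reverse TGACTCA occurred 2 times in the Cd68 window, at -149 and -24, and in no other member window. It was present at least once in 5.2% of all windows and at least 2 times in 0.222%. GGAAGTG or its reverse CACTTCC, the form bound by ETS factors such as PU.1, occurred once in the Cd68 window and once in the Laptm5 window, and in 11% of all windows. None of these 3 motifs overlaps another in the member windows, and the motifs were chosen with the sequences in view, so the counts are a description.

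The table was deep enough for most member regions. The 4 H3K27ac libraries held 15491642.5 to 20030832 tags, and 102 of the 117 member regions passed the filter on low signal. Values are tags per 800 bp region, or summed over the regions of a gene, scaled to 10000000 tags per library and then adjusted by TMM (trimmed mean of M values), and are called normalised tags. The listed regions took 49.4% of the tags of WT replicate 1 and 63.3% to 65.7% of those of the other 3 H3K27ac libraries, which TMM offsets with a factor of 0.825 for WT replicate 1 at the level of regions. Over the Grn start site the WT libraries held 357 and 300.1 normalised tags and both GrnKO libraries held 0. Summed over the member regions on the authors' scaling, input libraries held 283 to 426 tags and H3K27ac libraries 6743 to 11076.

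Acetylation summed over each gene's regions was higher in GrnKO for 4 members, Cd68, Mcoln1, Lamp1 and Npc1, and no member was lower, by limma with Benjamini-Hochberg adjustment over all 15380 genes tested at 0.05. All 9 passed the filter on low signal. The background in the same test was 9.54% of genes higher and 4.88% lower. At an unadjusted p under 0.05, 5 members were higher and 0 lower, beside 15.2% of all genes higher and 11.5% lower. EdgeR and DESeq2 each gave 4 members higher and 0 lower, beside 9.23% and 9.94% of all genes higher and 4.7% and 5.95% lower. In 8 of the 9 members both GrnKO libraries lay above both WT libraries, a pattern that 27.4% of all genes tested showed. The exception was Laptm5. The median log2 change of the 9 members was 0.39, beside -0.01 over all genes, a value that TMM holds near 0. Leaving out GrnKO replicate 2 left 2 members higher (background 5.32%), and leaving out WT replicate 2 gave 7 (background 13.8%). In such bulk measurements a change in the share of cells of a type and a change per cell cannot be told apart.

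**Figure D1:**
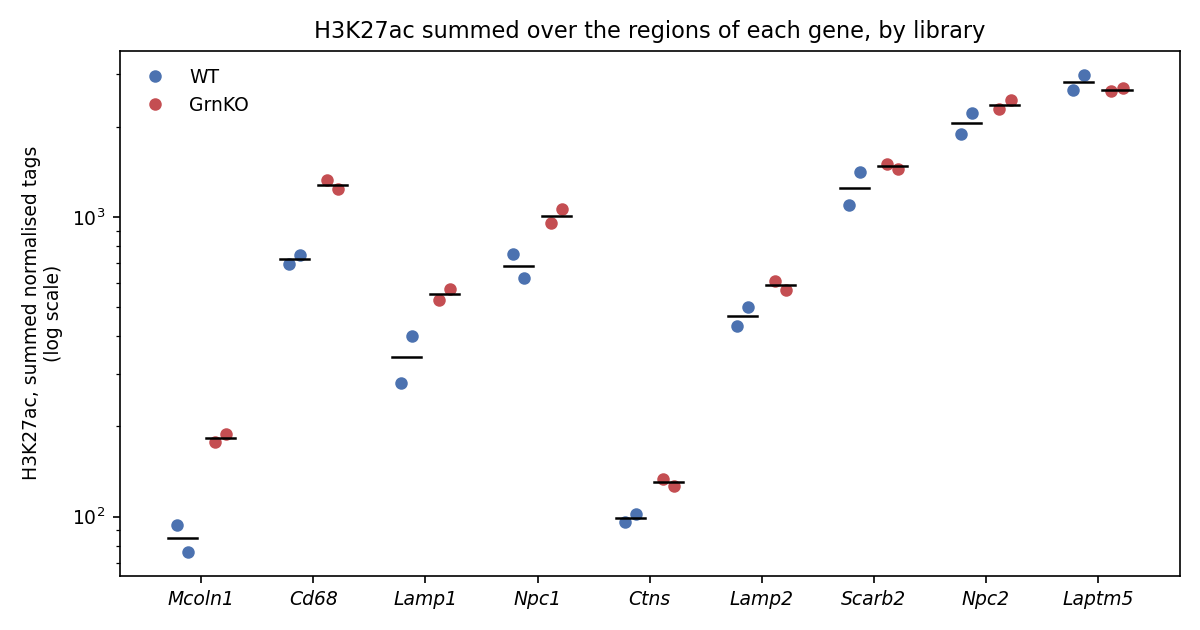
H3K27ac summed over the regions of each gene, in normalised tags on a log scale, with 1 point per library (WT blue, GrnKO red, replicate 1 left of replicate 2) and a black line at each group mean. Genes are ordered by log2 change; in Mcoln1 the GrnKO libraries held 177 and 189 tags and the WT libraries 93.6 and 76.3, and only in Laptm5 did the groups overlap.

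Marker genes of microglia and of other cells moved with the groups, and their part in the results was not tested. Of 10 microglial markers, all tested, 5 were lower in GrnKO and 0 higher, and their summed signal went from 52730 and 58670 normalised tags to 45457 and 47922. At an unadjusted p under 0.05, 7 of the microglial markers were lower and 1 higher, beside 11.5% of all genes lower and 15.2% higher. Of 8 markers of border-associated macrophages, which the gate could hold, 3 were higher (F13a1, Ms4a7 and Siglec1) and 0 lower, and the sum went from 2240 and 2017 to 3150 and 2836. At an unadjusted p under 0.05 and with edgeR or DESeq2 these macrophage markers also gave 3 higher and 0 lower, and the microglial ones gave 5 lower and 0 higher with both tools. Mrc1, Cd163, Lyve1, Pf4 and Cbr2 made no call, and no marker of either list was at 0. Of 36 listed markers of monocytes and neutrophils, lymphocytes, neurons, oligodendrocytes, astrocytes and endothelial cells 18 were tested, and 4 were higher (S100a8, Ms4a1, Mbp and Flt1) and 2 lower (Syt1 and Mog). For these markers edgeR gave 3 higher and 2 lower, DESeq2 4 higher and 3 lower, and an unadjusted p under 0.05 gave 7 higher and 3 lower, against the same shares of all genes. The summed signal of the lymphocyte markers went from 216 and 203 normalised tags to 618 and 468, that of the endothelial markers from 1466 and 1681 to 2072 and 2283, and that of the oligodendrocyte markers from 1935 and 1989 to 2534 and 2672. Most of the lymphocyte sum was Ms4a1, which went from 214 and 197 to 618 and 468. Most of the oligodendrocyte sum was Mbp, which went from 1743 and 1807 to 2452 and 2592. The astrocyte markers summed to between 3262 and 3432 in all 4 libraries, most of it Slc1a3. Slc1a3 held 3323 and 3359 in WT and 3176 and 3206 in GrnKO. Gfap, Aqp4 and Gja1 had lower means in GrnKO and Slc1a2 and Aldh1l1 higher means, and no astrocyte marker was called. The monocyte and neutrophil markers summed to 423 and 419 in WT against 355 and 282 in GrnKO. Most of that sum was Ccr2, at 406 and 399 against 322 and 254, without a call. S100a8 went the other way, from 0 and 5.23 to 20.7 and 18.9. The neuron markers summed to 214 and 271 in WT against 181 and 152 in GrnKO.

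Lamp1 encodes one of the most abundant glycoproteins of the lysosomal membrane. Its summed signal was 280.1 and 401 normalised tags in WT and 529 and 576 in GrnKO, so both knockout libraries lay above both WT libraries, although the WT pair was spread widely. The log2 change was 0.72 ± 0.17 (SE, n = 2 per genotype), with an adjusted p of 0.00951 by limma. This call was lost without GrnKO replicate 2, where the adjusted p was 0.0655, and the change was 0.46 without WT replicate 1.

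The Lamp1 regions that passed lay at the start site and upstream of it. The region at the start site (chr8:13158859-13159659, which holds the CACGTG repeats shown above) rose from 103 and 132 to 192 and 183 normalised tags (log2 change 0.68, adjusted p = 0.0324, limma). A region that overlaps it upstream and also holds the repeats went from 46.2 and 58.1 to 71.8 and 89.3 and made no call (0.62, adjusted p = 0.164). An intergenic region centred 3542 bp upstream (chr8:13155219-13156019) rose from 87.2 and 131 to 176 and 199 (0.80, adjusted p = 0.0219). Both called regions lost their call in 3 of the 4 fits that each left out 1 library, all but the fit without WT replicate 2. The remaining tested regions of Lamp1 lay in or next to the start site and in intron 1, and all 7 tested regions had a positive log2 change. The nearest other protein-coding gene to the upstream region was Cul4a, 7279 bp away.

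Lamp2, a second major membrane glycoprotein that also takes part in chaperone-mediated autophagy, lies on the X chromosome. Its sum was 431 and 502 normalised tags in WT, below the 613 and 572 of GrnKO. The groups did not overlap, but the log2 change of 0.35 had a 95% interval of 0.05 to 0.64 and missed the threshold (adjusted p = 0.117, limma). Without WT replicate 2 the log2 change was 0.48. That fit leaves WT replicate 1 alone, so in it genotype is partly mixed with the Xist and Y signal given below. None of its 11 tested regions passed. The region nearest the threshold was in intron 1, 418 bp past the start site, at 68.4 and 94.0 normalised tags in WT and 134 and 119 in GrnKO (log2 change 0.65, adjusted p = 0.0854). The start-site region itself, the strongest over the 4 libraries together, held 100.5 and 95.1 in WT and 129 and 103 in GrnKO (adjusted p = 0.56). Xist signal, which comes from female nuclei, was 81.7 and 128 scaled tags in WT replicate 1 and GrnKO replicate 1 and at most 5.49 in the libraries numbered 2, on the authors' scaling. Signal over 8 Y-chromosome regions ran the other way, at 5.81 and 0 in the libraries numbered 1 and 269.6 and 220.2 in those numbered 2. Lamp2 was 1.42 times as high in GrnKO as in WT among the libraries numbered 1 and 1.139 times among those numbered 2.

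Cd68, a sialomucin of lysosomes and late endosomes that is widely used as a marker of phagocytic macrophages and microglia, had the smallest p of the 9 genes. Its sum was 697 and 746 normalised tags in WT and 1324 and 1236 in GrnKO, a 1.773-fold difference of the means. The log2 change was 0.83 ± 0.11 (SE, n = 2 per genotype; adjusted p = 0.000169, limma), and the call was made under all 13 alternatives run for the gene.

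The Cd68 regions that passed lay over the gene body, and the region over exon 2 also covers the start site. A region over exon 5 of 6 (chr11:69664361-69665161) went from 169 and 192 normalised tags in WT to 471 and 429.8 in GrnKO (log2 change 1.31, adjusted p = 2.53e-05, limma). A region over exon 2 (chr11:69665407-69666207), the strongest of the gene, went from 309.7 and 356 to 555 and 519 (0.69, adjusted p = 0.00216), a call lost without GrnKO replicate 1 (adjusted p = 0.0677). The region at the start site, which holds the 2 TGAGTCA matches, held 175 and 179 in WT and 220.1 and 219.9 in GrnKO (0.31, adjusted p = 0.258). The start-site and exon 2 regions share bases, and the match at -24 lies in both. The ratio of the exon 5 region to the start-site region, which does not depend on the scaling between libraries, was 0.969 and 1.08 in WT and 2.14 and 1.96 in GrnKO. It is a description, since the exon 5 region was picked for its small p, and with 2 libraries against 2 an exact permutation test allows no p under 0.333.

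The remaining 4 Cd68 regions lie upstream, inside the neighbouring gene Eif4a1. The nearest of them, over the last exon of Eif4a1, held 10.6 and 14.1 normalised tags in WT and 35.9 and 31.8 in GrnKO and stood just outside the threshold (log2 change 1.40, adjusted p = 0.0502, limma). On the other side of the threshold the nearest member region was a Laptm5 region at an adjusted p of 0.0387.

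Scarb2 encodes LIMP-2, the membrane protein that carries glucocerebrosidase to the lysosome. Its sum was 1094 and 1411 normalised tags in WT and 1506 and 1449 in GrnKO, so the upper WT library came close to the lower GrnKO library. The log2 change of 0.25 had a 95% interval of -0.01 to 0.51 (adjusted p = 0.211, limma). Without WT replicate 1 it was 0.07 (adjusted p = 0.723), and without WT replicate 2 it was 0.45 and passed (adjusted p = 0.00106). Of 20 tested regions 1 passed, an intergenic region centred 18225 bp upstream of the start site (chr5:92523482-92524282). On the authors' scaling, H3K27ac there was 14.85 and 27.13 tags in WT and 58.72 and 56.66 in GrnKO. Input on that scaling was 52.72 and 0 in WT and 14.57 and 0 in GrnKO. After TMM the region held 18.0 and 26.2 normalised tags in WT and 54.3 and 52.4 in GrnKO (1.26, adjusted p = 0.0291). That call was lost without either GrnKO library. The start-site region held 143 and 192 in WT and 179.9 and 182 in GrnKO, which overlap (adjusted p = 0.738), and so did the strongest region over the 4 libraries together, centred 3308 bp upstream, at 159 and 200.4 against 174 and 199 (adjusted p = 0.888).

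Laptm5 encodes a lysosomal membrane protein of haematopoietic cells that directs receptors to degradation. It had the highest sum of the 9, over the most regions, and it made no call. The WT libraries held 2647 and 2985 normalised tags and the GrnKO libraries 2626 and 2688, and the groups overlapped. The log2 change was -0.08, with a 95% interval of -0.28 to 0.12 (adjusted p = 0.649, limma). Its sign turned with the authors' scaling alone, where it was 0.11 and the median of all genes 0.176, and without WT replicate 2, where it was 0.03.

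Inside the Laptm5 locus changes of both signs occurred. Of 29 tested regions 12 had a positive log2 change. The start-site region, the strongest member region in WT, held 631 and 673 normalised tags in WT and 502 and 563 in GrnKO; the groups did not overlap, but the test was not passed (log2 change -0.29, adjusted p = 0.123, limma). Without WT replicate 1 this region was called lower (-0.33, adjusted p = 0.0239), and with the authors' scaling alone its change was -0.07. An intergenic region centred 6354 bp upstream (chr4:130906580-130907380) fell from 24.3 and 20.7 to 3.68 and 6.00 normalised tags (log2 change -2.03, adjusted p = 0.0387). It was the only member region called lower with all 4 libraries, and the call was lost in 5 of its alternatives. In the other direction, a region in intron 1, centred 6036 bp past the start site, held 52.4 and 70.2 in WT and 101.5 in both GrnKO libraries (0.73, adjusted p = 0.0699).

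Npc1 encodes the multipass membrane protein that exports cholesterol from late endosomes and lysosomes. Its sum was 749 and 627 normalised tags in WT and 954 and 1062 in GrnKO, with both knockout libraries above both WT libraries. The log2 change was 0.55 ± 0.13 (SE, n = 2 per genotype; adjusted p = 0.00815, limma). Without GrnKO replicate 2 the change was 0.48 and the adjusted p 0.144.

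The Npc1 regions that passed lay inside the gene. A pair of regions that share 382 bp of intron 1 (chr18:12223735-12224535 and chr18:12224153-12224953), centred 12251 and 11833 bp past the start site, passed the test. The first went from 124 and 104 normalised tags in WT to 249 and 289 in GrnKO (log2 change 1.23, adjusted p = 0.000265, limma). The second, the strongest region of the gene, went from 211 and 140.1 to 265 and 314 (0.74, adjusted p = 0.0176), and was lost without GrnKO replicate 2 (adjusted p = 0.213). Its change was 1.04 without WT replicate 1 and 0.47 without WT replicate 2. Because they overlap, they are not independent measurements.

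Other regions of Npc1 made no call. A region of intron 1 centred 6212 bp past the start site held 153 and 158 normalised tags in WT and 116 and 146 in GrnKO (log2 change -0.26, adjusted p = 0.467, limma). The start-site region held 88.8 and 69.4 in WT and 89.4 and 91.4 in GrnKO (0.20, 95% interval -0.30 to 0.70, adjusted p = 0.67), and the region at 345 bp held 92.3 and 79.4 in WT and 103 and 108 in GrnKO (0.30, adjusted p = 0.449). Within each library, the ratio of the region at 12251 bp to the one at 6212 bp was 0.815 and 0.657 in WT and 2.15 and 1.98 in GrnKO, a description only, since the regions were picked for passing and for not passing the test. Summed over regions within 1000 bp of the start site alone, Npc1 changed by 0.33 (adjusted p = 0.382), and over regions farther away by 0.62 (adjusted p = 0.00941).

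Npc2 encodes the soluble partner that binds cholesterol in the lumen. Its sum was 1895 and 2214 normalised tags in WT, below the 2283 and 2454 of GrnKO. The groups did not overlap, and the log2 change of 0.21 had a 95% interval of -0.01 to 0.43 (adjusted p = 0.209, limma). Without WT replicate 1 it was 0.10 (adjusted p = 0.507), and without WT replicate 2 it was 0.34 and passed (adjusted p = 0.00423). Of its signal, 5 intergenic regions centred 20290 to 24765 bp past the start site, beyond the end of the gene, held the larger share, summing to 1667 and 1973 in WT and 1936 and 2121 in GrnKO, which overlap. The table assigns them to Npc2 by the nearest start site, which does not show that they act on it. The strongest of them held 399 and 512 in WT and 482 and 548 in GrnKO (adjusted p = 0.446), and it passed without WT replicate 2 (adjusted p = 0.0262).

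At the Npc2 start site itself, in a region that also covers the neighbouring gene Isca2, signal was 54.8 and 45.6 normalised tags in WT, below the 82.0 and 71.5 of GrnKO. The log2 change there was 0.61 and did not pass (adjusted p = 0.172, limma). The region of the start site relative to the region at 24765 bp was 13.6% and 10.3% in WT and 18.2% and 15.7% in GrnKO.

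Mcoln1 encodes TRPML1, the channel that releases calcium and other cations from the lysosome. It showed the largest log2 change of the 9 genes. The WT libraries held 93.6 and 76.3 normalised tags and the GrnKO libraries 177 and 189, a 2.156-fold difference of the means. The log2 change was 1.11 ± 0.22 (SE, n = 2 per genotype; adjusted p = 0.00312, limma).

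The start-site region of Mcoln1 (chr8:3500121-3500921), which holds the pair of CACGTG matches shown above, rose from 61.8 and 51.3 to 106 and 110.3 normalised tags (log2 change 0.93, adjusted p = 0.0202, limma). The adjoining region in intron 1 (chr8:3500540-3501340), which shares bases with it, rose from 25.8 and 21.7 to 60.5 and 63.4 (1.35, adjusted p = 0.0125). Both calls were lost when either GrnKO library was left out. The third region, centred 1926 bp past the start site, held at most 13.2 normalised tags in a library and did not pass (adjusted p = 0.515).

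Ctns encodes cystinosin, which exports cystine from the lysosome. Its 2 regions summed to 95.9 and 102 normalised tags in WT, below the 133 and 127 of GrnKO. The groups did not overlap, but the 95% interval of the log2 change, -0.08 to 0.87 around 0.39, holds 0 and also changes as large as that of Cd68 (adjusted p = 0.293, limma). The start-site region, which also covers part of Shpk, held 59.4 and 49.5 in WT and 86.6 and 68.8 in GrnKO (adjusted p = 0.267). The intron 3 region held 38.7 and 52.6 in WT and 45.0 and 56.5 in GrnKO, which overlap.

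**Figure D2:**
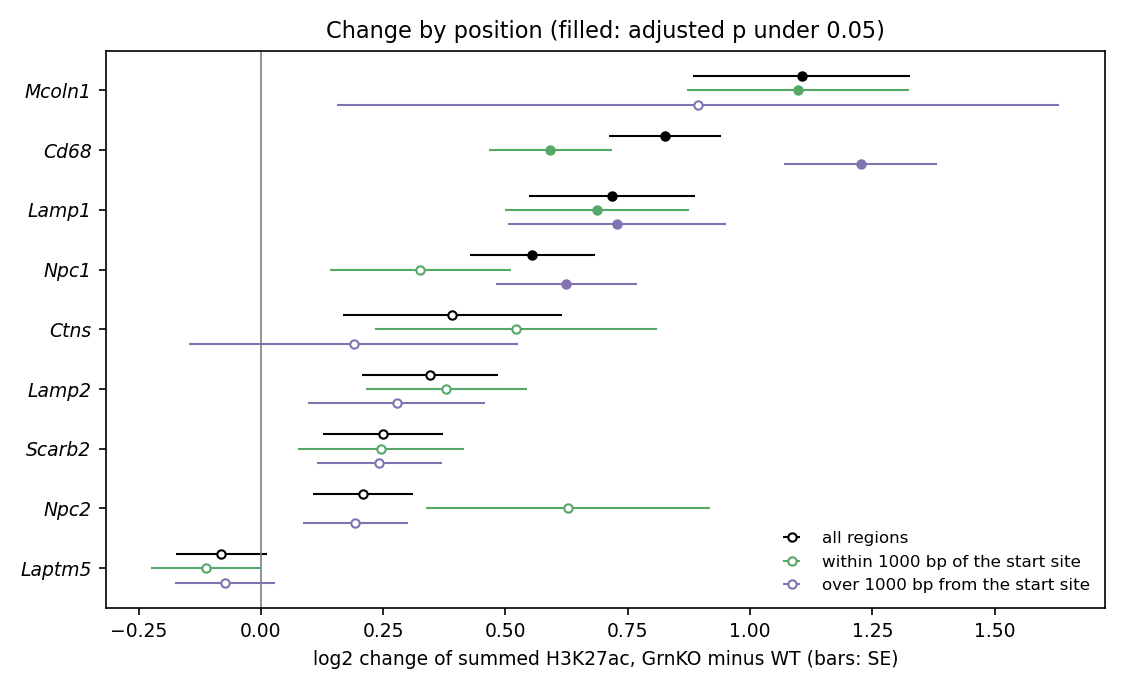
The log2 change of summed H3K27ac, GrnKO minus WT, for each member over all its regions (black), over regions within 1000 bp of the start site (green) and over regions farther away (purple); bars are SE and filled points passed limma at an adjusted p of 0.05. Near the start site Mcoln1, Cd68 and Lamp1 passed, and farther away Cd68, Lamp1 and Npc1 passed.

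Splitting the signal by position gave 3 members higher in each class. Near the start site Mcoln1 (log2 change 1.10, adjusted p = 0.00627), Cd68 (0.59, 0.00787) and Lamp1 (0.69, 0.038) were higher by limma, as were 3.96% of 11084 genes. Farther away Cd68 (1.23, adjusted p = 0.000171), Npc1 (0.62, 0.00941) and Lamp1 (0.73, 0.0385) were higher, as were 11.7% of 11368 genes. Whether the change of a member differs between the classes was not tested.

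**Figure D3:**
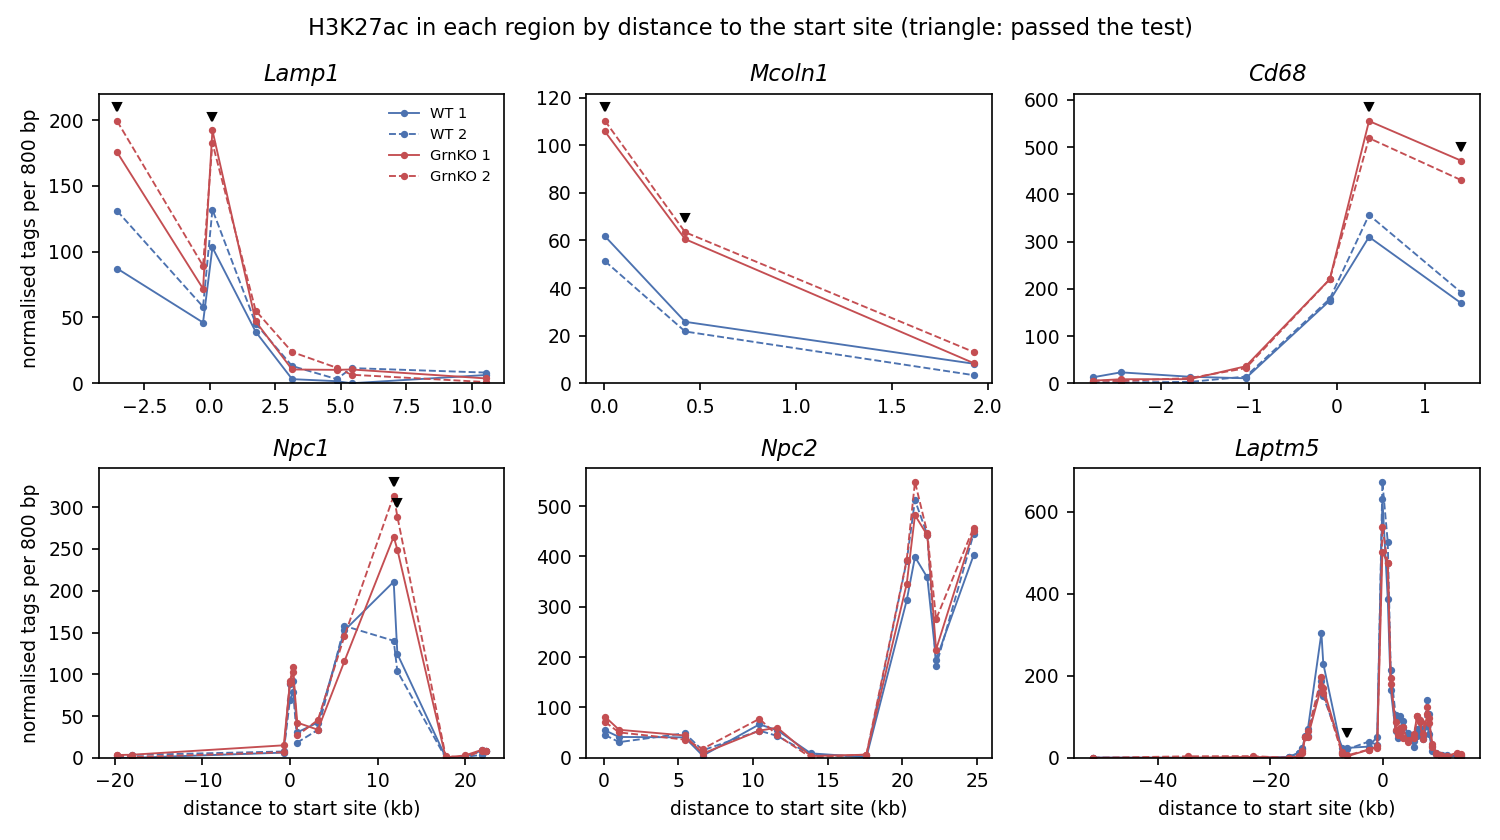
Normalised tags per 800 bp region against distance from the start site in kb for 6 members, with WT libraries in blue, GrnKO libraries in red, replicate 1 solid and replicate 2 dashed; lines join regions in order and triangles mark regions that passed the test. In Npc1 the GrnKO lines stand above WT at 11833 and 12251 bp but not at 6212 bp, and in Npc2 the tallest regions, at 20290 to 24765 bp, carry no triangle.

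Over the single regions, 9 of the 102 tested member regions were higher in GrnKO, 1 was lower and 92 made no call. The share higher, 8.82%, is near the background of 6.8% higher (2.92% lower) among all 80728 regions tested, so the count of regions does not set the members apart. Without GrnKO replicate 1 the count was 3 (background 2.0%), without GrnKO replicate 2 it was 3 (background 2.59%), and without WT replicate 2 it was 17 (background 10.8%). Of the 20 tested within 1000 bp of a start site 4 were higher, beside a background of 3.57% (1.61% lower), and of the 82 farther away 5 were higher and 1 lower, beside 7.99% and 3.4%. The median log2 change of the member regions was 0.22, beside 0.00 over all regions, a value that TMM holds near 0. With the authors' scaling alone 10 member regions were higher and 0 lower, and the calls over all regions split into 6581 higher and 333 lower, beside 5488 and 2354 with TMM. Neighbouring regions of a gene often share bases, so these counts are not counts of independent sites.

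**Figure D4:**
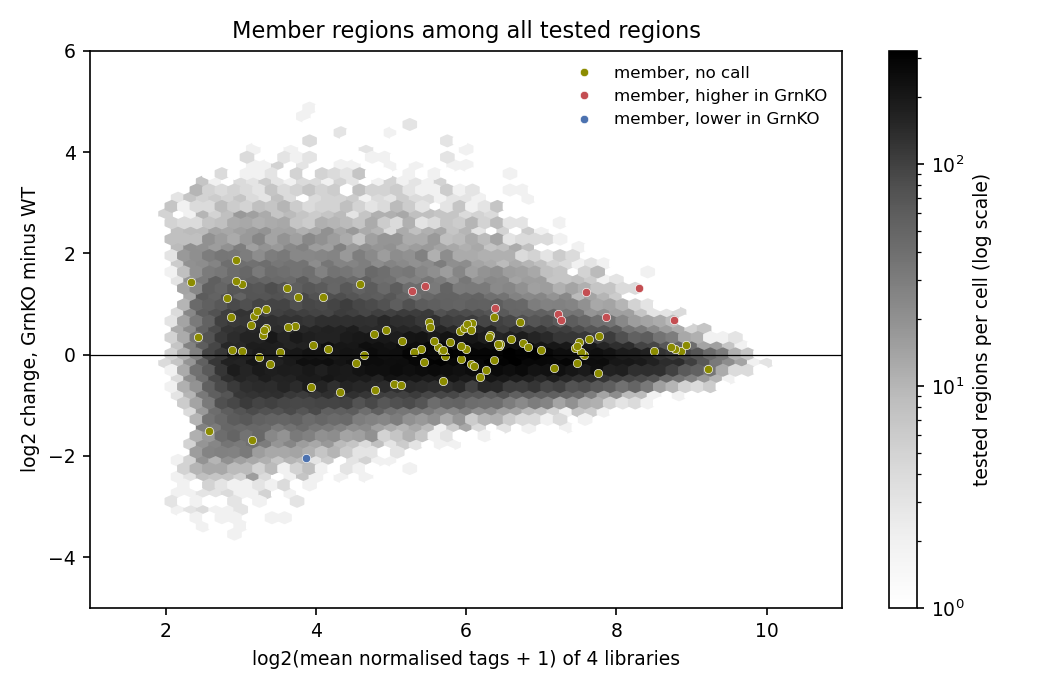
The log2 change, GrnKO minus WT, of every tested region against its mean signal, as log2 of normalised tags plus 1, with all 80728 tested regions in grey by density on a log scale and the 102 tested member regions as points. The 9 called higher (red) spread over a wide range of signal, the 1 called lower (blue) lies at low signal, and most members lie inside the grey cloud.

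The start-site regions are all 800 bp wide, so their levels can be set side by side. In WT the order was Laptm5 (652 normalised tags, mean), Cd68 (177), Scarb2 (167), Lamp1 (118), Lamp2 (97.8), Npc1 (79.1), Mcoln1 (56.6), Ctns (54.5) and Npc2 (50.2). Cd68 and Scarb2 overlapped between their WT libraries, and so did Mcoln1 with Ctns and Ctns with Npc2. In GrnKO the mean of Lamp1 was 188 and that of Scarb2 181, and Mcoln1 reached 108 beside 90.4 for Npc1.

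Expressed relative to Laptm5 in the same library, which removes the scaling between libraries, the other 8 members were higher in both GrnKO libraries than in both WT libraries. The ratio for Mcoln1 was 3.54% and 2.56% in WT and 6.75% and 7.03% in GrnKO. Cd68 stood at 26.4% and 24.98% in WT and 50.4% and 46.0% in GrnKO, and Npc2 at 71.6% and 74.2% in WT and 86.9% and 91.3% in GrnKO. Since Laptm5 was picked as the member that did not rise, higher ratios in GrnKO follow in part from that choice and are a description. With 2 libraries against 2 an exact permutation test allows no p under 0.333.

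The libraries numbered 1 and those numbered 2 differ in the Xist and Y signal given for Lamp2, so the members were also compared within each number. The ratio of GrnKO to WT of the 8 members other than Laptm5 was 1.21 to 1.90 among the libraries numbered 1 and 1.03 to 2.48 among those numbered 2. The ratio of Laptm5 was 0.992 and 0.9004.

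Other genes of the lysosomal membrane and of cholesterol handling were read from the same fit, in which 9.54% of all genes were higher and 4.88% lower. Both lists were also written with earlier results of these data known. Of 39 listed genes of the lysosomal membrane 36 were tested, and 9 were higher and 0 lower (median log2 change 0.27), by limma with adjustment over all genes. The 3 with the smallest p were Cd63 (1.16, adjusted p = 7.29e-06), a tetraspanin of late endosomes, Clcn7 (1.86, adjusted p = 1.67e-05), the chloride and proton exchanger, and Mcoln2 (1.98, adjusted p = 6.84e-05), a paralog of Mcoln1. The other paralog, Mcoln3, named here after its values were seen, went from 13.4 and 5.49 normalised tags in WT to 115 and 97.3 in GrnKO (3.46, adjusted p = 8.33e-05). All 3 genes of the mucolipin family were thus higher, Mcoln1 by the smallest log2 change of the 3.

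Of 18 listed genes of cholesterol handling around the lysosome 17 were tested, and 7 were higher and 0 lower (median log2 change 0.26), beside the same 9.54% and 4.88% of all genes. The 3 with the smallest p were Gramd1b (1.41, adjusted p = 1.06e-06, limma), a cholesterol transfer protein at contacts of the endoplasmic reticulum, Nceh1 (1.38, adjusted p = 2.34e-06), a cholesteryl ester hydrolase, and Lipa (1.24, adjusted p = 5.67e-06), the lysosomal acid lipase that frees cholesterol for NPC2 and NPC1. Each of these changes was larger than that of Npc1. The cholesterol exporters of the cell surface Abca1 (0.02, adjusted p = 0.927) and Abcg1 (-0.02, adjusted p = 0.928), named after their values were seen, did not pass. Over both lists, 22 of the 53 tested genes were higher and 4 lower at an unadjusted p under 0.05, beside 15.2% and 11.5% of all genes. DESeq2 called 17 higher and 1 lower, and edgeR 16 higher and 0 lower. Without WT replicate 1, limma called 18 of the listed genes higher and 3 lower, beside 12.3% and 7.67% of all genes, and without WT replicate 2 it called 23 higher and 4 lower, beside 13.8% and 7.52%.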

How the data were processed

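H3K27ac and input libraries of 2 WT and 2 GrnKO pools were read from 1 deposited table. Its values are a signal: the authors scaled tags per 800 bp region to 10000000 tags per library, per the file headers. The regions were ATAC-seq peaks, merged from a list whose name carries labels of other knockout lines. Bowtie2, HOMER, DESeq2 and build mm10 are named in the submitters' processing notes, with no role or version. Multiplying by the library totals returned whole read ends for 100% of values (tolerance 0.1 of a read end, 2 ends per tag). On these recovered reads edgeR called 6925 regions, beside 7842 by limma.

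Regions, and sums of all regions per gene, passed edgeR's filterByExpr (minimum 10 tags, by genotype). TMM factors were computed for each level, log2(value + 1) was tested with limma 3.58.1 (lmFit, eBayes with trend, two-sided; edgeR 4.0.16 and DESeq2 1.42.0 as alternatives, R 4.3.3), and p was adjusted (Benjamini-Hochberg) over all regions or genes. Fold changes refer to log2(value + 1), so those of low regions are understated. Inputs served as background only. Intervals are 95%. Replicates are pools of different mice, per the labels. The fits were tested on simulated data. Coordinates are as deposited. Replicate numbers come from the titles.

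The members and lists were chosen with earlier results of these data known. The text names all 9 members and, of each, the regions past the threshold, the region nearest the start site and the strongest region, and of each list the 3 called genes with the smallest p. Other regions and genes were chosen after their values were seen. No RefSeq promoter window was used for Npc1, and no protein sequences were used. Results were also computed with the authors' scaling, a pseudocount of 5, no filter, a replicate block, an adjusted p under 0.1, other choices of regions and each library left out.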

Additional observations from a re-analysis of the deposited data

How the results depend on the processing

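Of 391 values recomputed under the alternatives, 346 stayed on the same side of the test or moved little, 23 lost a call, 5 gained one, 17 moved and 0 reversed a called direction. Leaving out each H3K27ac library in turn (the lone library of a genotype is then assumed to vary like the other genotype) gave 3 to 17 member regions higher, beside 9, and 0 to 2 lower, beside 1. It gave 2 to 7 member genes higher, beside 4: without WT replicate 2, Lamp2, Scarb2 and Npc2 were added, and without GrnKO replicate 2, Lamp1 and Npc1 were lost. For the listed genes it gave 0 to 4 lower, beside 0. The count of lower member regions was 0 with the authors' scaling alone and 0 with no filter. The count of lower listed genes was 1 with DESeq2 and 1 with the replicate block. The cause was not tested.

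Samples with the same replicate number come from different mice, and the correlation of their deviations was 0.0344 over regions and 0.0368 over genes. They share the Xist and Y signal given for Lamp2, and the labels name no shared source. Each fit that leaves out 1 library therefore also unbalances that signal between the genotypes. With the replicate block 12 member regions were higher and 1 lower, beside 9.17% and 4.94% of all regions tested. In that fit 4 member genes and 19 listed genes were higher, beside 12% of all genes tested. It called 11391 regions in all, beside 7842 without the block. The authors' scaling alone raised the median of all regions to 0.216 and of all genes to 0.176, and split the gene calls into 1629 higher and 166 lower, beside 1468 and 750. Leaving out 1 library gave 2171 to 13647 calls over all regions and 953 to 3419 over all genes, beside 7842 and 2218. The start-site region of Scarb2 turned to -0.07 without WT replicate 1.

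With 2 pools per genotype the spread is estimated mainly from other regions, and regions with few tags, such as the lowest of Lamp1 and Laptm5, allow only large changes to be detected. Intervals cover the spread between pools as modelled.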
